A study of Saccharomyces cerevisiae with 8 samples.

Results

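The comparison of wild-type cells with IME4-deleted cells in input RNA covered every ACA site that had a value in both WT input and both KO input libraries, without asking for a value after pulldown with the m6A antibody (IP). There were 42028 such sites in 5164 genes, of 76330 distinct sites in 6019 genes in the whole table, and 1 line was kept for each chromosome, position and strand. All cells were MAT a/alpha diploids of the SK1 strain that were homozygous for lys2, for LYS2 inserted at HO (ho::LYS2) and for LEU2 inserted at NDT80 (ndt80::LEU2), so the controls also lacked an intact NDT80. The KO cells were in addition homozygous for HIS3 inserted at IME4 (ime4::HIS3). Cells were grown in YPD at 30 °C and meiosis was induced, and no label gives the hours after induction. Each group had 2 biological replicates. Polyadenylated RNA was taken, and input is that RNA without antibody enrichment.

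IME4 encodes the methyltransferase that places N6-methyladenosine (m6A) on yeast messenger RNA during meiosis. MazF is a bacterial endoribonuclease that cuts RNA at ACA and spares the site when its first A carries m6A, so a methylated site is expected to be cut less often where IME4 is present. NDT80 encodes the transcription factor that takes cells out of pachytene, and cells without it stop in meiotic prophase. The deposited value is a normalized cleavage efficiency, a fraction between 0 and 1 for each site and library. A higher value was taken to mean that more of the RNA was cut, which no label states. Sites are named by gene and by offset, counted in nt from the model's first base in the direction of transcription. Positions are those of the table, whose genome build no source used here gives, and it does not state exon, intron or UTR.

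WT input replicate 1 measured 45384 sites (59.5% of those listed), fewer than the 62508 of WT input replicate 2 and the 61515 and 62063 of KO input. No read counts came with the fractions, so the depth behind a value is unknown. Over the tested sites the WT libraries differed from each other with an SD of 0.14 and the KO libraries with an SD of 0.0727. Replicates correlated at 0.913 in WT and 0.977 in KO, and libraries of different genotype at 0.763 to 0.778, across sites, which are not independent replicates. The highest value of a library was shared by 3.32% to 9.8% of its sites, and at that ceiling no replicate spread can be read.

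The deleted gene separated the genotypes. IME4 had 27 listed sites, of which the WT libraries measured 21 and 23 and the KO libraries 2 and 0. Both sites of KO replicate 1 lay at the 3′ end, at +2054 and +2123, beyond the last site that either WT library measured (+1878). HO, which is interrupted in all cells, had 1 listed site and no input library measured it, and the table lists no site for HIS3 or LEU2. NDT80 had 3 listed sites, of which WT measured 2 and 3 and KO 0 and 1. LYS2 had 33 listed sites and 20 were tested, with losses at 2, a gain at 1 and no call at 17; its last listed site, +4359, had 0.419 and 0.461 in WT and 0.882 and 0.899 in KO.

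In the fit to all 4 input libraries, most of the 5164 tested genes had a site called different between WT and KO. Calls over all genes went in both directions, but most genes did not have both. In limma's fit 10508 of the 42028 sites passed an adjusted p of 0.05 (25.0%), of which 4627 (11.0%) fell in WT and 5881 (14.0%) rose. The falls lay in 2687 genes and the rises in 2934. Genes with calls in both directions numbered 1781, and 1324 genes had no call. The median change was -0.327 among lower and 0.307 among higher calls, against -0.000212 over all tested sites. Losses of 0.3 or more were called at 2699 sites (6.42%) in 1951 genes, and gains of that size at 3050 sites (7.26%) in 2033 genes. Losses of 0.5 or more were called at 568 sites (1.35%) in 526 genes, of which 489 had 1 such site. Gains of 0.5 or more were called at 686 sites (1.63%) in 611 genes. At the 568 deep losses the median efficiency was 0.916 in KO and 0.281 in WT. Both WT libraries lay on one side of both KO libraries at 29680 sites (70.6%). With a random order of the 4 libraries at a site, the expected share is 0.333.

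The number of calls fell most when a KO library was left out. In fits to the input libraries alone, leaving out 1 library takes all replicate spread from the other genotype. The SD between libraries was 0.14 in WT and 0.0727 in KO, so the fits without a WT library used the smaller spread. Remarks below on calls kept or ended without a WT input library rest on that smaller spread. Without KO input replicate 1 or 2, limma called 0 sites (unadjusted p below 0.05 at 11324 and 11129), with 1 residual degree of freedom and all replicate spread taken from WT. With the spread taken from all remaining libraries, IP included, 3027 and 2746 sites passed without those libraries, a fit chosen after seeing the data. The count was 10056 without WT input replicate 1 and 9313 without WT input replicate 2, but 6817 and 6514 of these were among the 10508 calls of the full fit. Of the 150 called sites chosen for naming, 90 kept their call in each of the 4 fits that left out an input library and took the spread from all others. The others include sites that stand below without a remark, among them GGA1 +1543, MEI4 +1450, VIR1 +2200, NOP56 +549, NAM7 +1922 and ATG8 +664. With 2 libraries against 2, the smallest two-sided p of an exact permutation test at 1 site is 0.333. The lowest adjusted p of limma's fit was 0.0111, shared by many sites.

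Of the tested sites, 24652 lacked a value in at least 1 IP library and so had no part in a comparison that asks for a value in all 8 libraries. They included 5654 calls (22.9% of them, against 27.9% of the 17376 sites with all IP values), and 1398 genes were tested only there. At the deepest losses among them efficiency stood near its upper limit in KO and near 0 in WT. At LPP1, a lipid phosphate phosphatase gene, +921 (chromosome 4, position 1447048, minus strand) had 0.0984 and 0.0672 in WT and 0.965 and 0.986 in KO, with a WT minus KO difference of -0.893 (SE 0.0248, adjusted p = 0.0111). RTK1, a protein kinase gene, had 0.102 and 0.11 in WT and 0.988 and 0.996 in KO at +1797 (chromosome 4, position 416531). MED1, a subunit of the Mediator complex, had 0.0583 and 0.0603 in WT and 0.946 and 0.902 in KO at +2066, its last listed site (chromosome 16, position 701039). At these 3 sites the libraries of a genotype lay close together and far from the other genotype. The choice took the largest differences among called sites whose groups did not overlap, so this follows from it. It does not describe the whole genes: no call was made at 5 of the 7 tested sites of LPP1 and 4 of the 9 of RTK1, and MED1 had 1 tested site.

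Among the 12 deepest losses at called sites lacking an IP value, 1 per gene, 2 lay in genes that act in meiotic prophase. RDH54, a recombination translocase gene, had 0.0167 and 0.0436 in WT and 0.864 and 0.909 in KO at +2938 (chromosome 2, position 372552). GMC1, a gene of meiotic prophase, had 0.197 and 0.14 in WT and 0.976 and 1.000 in KO at +814. The others of these 12 were of varied function, and deeper losses than some of them stood at sites outside this choice (MLO50 +1123, with -0.905). NUP133 of the nuclear pore changed by -0.838 at +2969, GET4 of tail-anchored protein insertion by -0.831 at +784 and SNU71 of the U1 snRNP by -0.821 at +653. The mitochondrial ABC transporter gene MDL1 changed by -0.848 at +1060, YPF1, an intramembrane protease gene, by -0.816, CSF1 by -0.812 at +8260 and MFB1, an F-box protein gene, by -0.812. MDL1 stood at 1.000 in both KO libraries, their ceiling. Where WT IP was measured at these 12 sites its mean ran from 0.00406 to 0.36, below the KO input libraries throughout; KO IP lacked a value in at least 1 library at each. All 12 calls held in the fits without each input library that took the spread from all others.

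Gains at such sites reached 0.817. FAB1, the phosphatidylinositol 3-phosphate 5-kinase gene, had 0.992 and 0.967 in WT and 0.187 and 0.138 in KO at +6568 (chromosome 6, position 194168), 0.817 higher in WT (SE 0.0291, adjusted p = 0.0111). CLF1, a splicing factor gene, rose by 0.787 at +1192, SEC21 of the coatomer by 0.764 at +2420, and ATO3, an ammonium exporter gene, by 0.744 at +841. MDM34 of the ER to mitochondria tether had 0.912 and 0.994 in WT and 0.263 and 0.0518 in KO at +1095, so its KO libraries differed by more than its WT libraries. PLB1, a phospholipase B gene, rose by 0.759 at +873 with both WT libraries at their ceiling, MSN5, a nuclear export receptor gene, by 0.756 at +3179 and RBK1, the ribokinase gene, by 0.738 at +252. These last 4 calls ended without WT input replicate 1 (adjusted p = 0.053 for MDM34, 0.0935 for PLB1, 0.0592 for MSN5 and 0.0748 for RBK1) and without WT input replicate 2 (0.0614, 0.0953, 0.0576 and 0.0777).

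**Figure D1:**
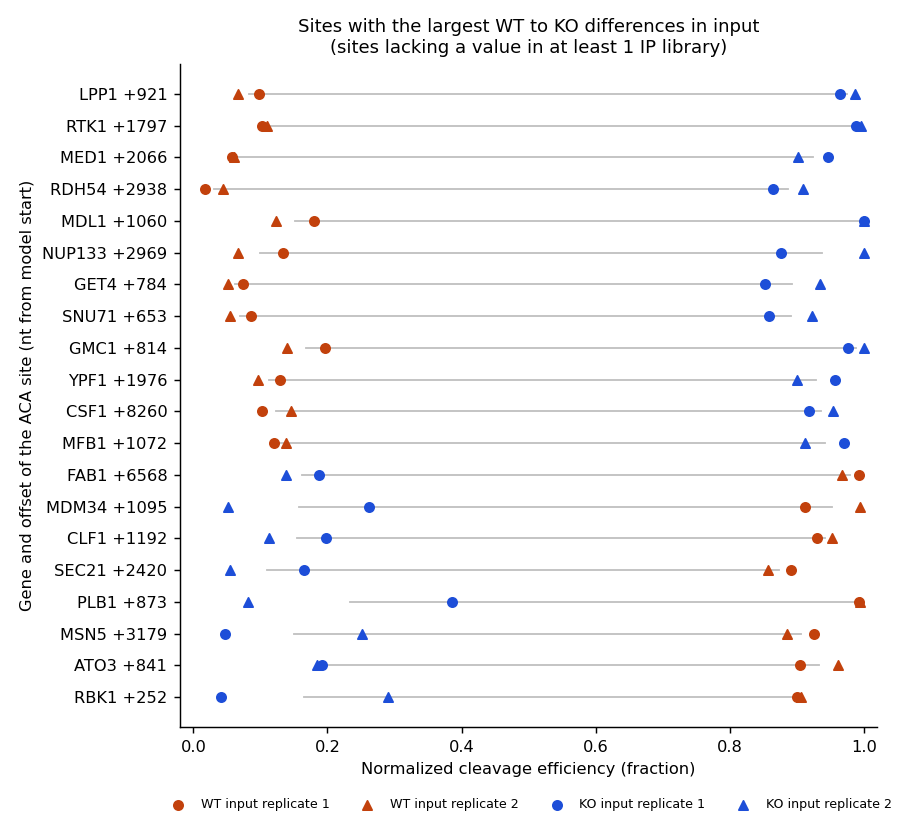
Normalized cleavage efficiency (fraction) in each input library at the 12 sites with the largest losses and the 8 with the largest gains in WT among called sites that lack a value in at least 1 IP library; the grey line joins the group means (n = 2 libraries each). At the losses both WT libraries lie below 0.2 and both KO libraries above 0.8, and PLB1, RBK1 and MDM34 show the widest gaps between KO libraries.

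Changes were spread thinly over genes. A gene had a median of 7 tested sites, and of the genes with a loss of 0.3 or more, 1401 had 1 such site. NUM1, which encodes a cortical anchor for nuclear migration and mitochondria, had the most: 11 of its 21 tested sites were lower and 2 higher, with 10 losses of 0.3 or more. At its last tested site, +7354 (chromosome 4, position 778640), it had 0.231 and 0.145 in WT and 0.938 and 0.89 in KO. Of these 10, a run of 7 lay between +2115 and +3005 with similar values, 0.0572 to 0.208 in WT and 0.381 to 0.594 in KO. NUM1 encodes tandem internal repeats, and reads of repeats can be shared, so these sites may not be separate measurements. Of the 7, the 6 at +2307, +2520, +2547, +2978, +3005 and +2142 lost their call without a KO input library even with the spread from all libraries (adjusted p 0.0568 to 0.166).

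PKH2, a protein kinase gene of sphingolipid signalling, had 8 lower sites, all by 0.3 or more, and 4 higher of 29. Its losses ran along most of the model, from +782 to +3013, and the largest was -0.496 at +782. The call at +782 ended without WT input replicate 1 (adjusted p = 0.0873) or 2 (0.0787) and on the logit scale (0.0959), and those at +1613 (0.102 and 0.115) and +1942 (0.0907 and 0.0966) ended without either WT input library. YEF3, translation elongation factor eEF3, had 7 lower and 6 higher of 34. It has a paralog in HEF3, and whether these genes share reads was not tested. TCB3, a tricalbin gene of ER to plasma membrane contacts, had 5 lower and 1 higher of 18. The losses of TCB3 all lay from +3859 to its last listed site at +4915, and +4732 (chromosome 13, position 132557, minus strand) had 0.365 and 0.411 in WT and 0.987 and 0.953 in KO. RPN9, a subunit of the proteasome lid, had 6 lower sites, none higher and 4 that did not pass, and a median change of -0.269 over its 10 tested sites. At +616 (chromosome 4, position 1314798) it had 0.229 and 0.216 in WT and 0.958 and 0.924 in KO, and at +996, +1125, +1240 and +1253 no difference passed. MSN5 had 6 lower and 5 higher of 27, with its deepest loss, -0.64, at +3881.

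LEU1, which encodes isopropylmalate isomerase of leucine synthesis, had the most gains of 0.3 or more, 7 of 27 tested sites, beside 5 lower sites of which the deepest was -0.629 at +1875. GGA1, a Golgi adaptor gene, had 7 higher and 4 lower of 17. At +1204 it had 0.992 and 0.966 in WT and 0.37 and 0.381 in KO, and at +1543 0.9 and 0.825 in WT and 0.233 and 0.212 in KO. PRE10, a 20S proteasome subunit gene, had 7 higher and 2 lower of 15, with its largest gain, 0.639, at +628. PPN1, an endopolyphosphatase gene, had 9 higher and 2 lower of 25. At +2111 PPN1 had 0.869 and 0.882 in WT and 0.283 and 0.282 in KO. That call ended in all 4 fits with the spread from all other libraries, where the gain ran from 0.586 to 0.599. Of the 594 genes with at least 5 calls, 560 had both directions, 10 only lower and 24 only higher calls. Over all genes 4627 calls were lower and 5881 higher, and how often that split alone would put both directions in a gene was not tested. In the genes from NUM1 to PPN1, 16 of the 39 losses and 13 of the 25 gains of 0.3 or more kept their call in each of the 4 fits that left out an input library and took the spread from all others, and 34 and 22 kept it in both fits to the input libraries that left out a WT library.

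At the other end, RTC5 had 23 tested sites and no call, with changes from -0.174 to 0.272. TFC4, a subunit of the Pol III factor TFIIIC, had 19, GSH2, glutathione synthetase, 16 and ITR2, a myo-inositol transporter, 16. Their changes reached 0.346 (TFC4 +2936, with 0.729 and 0.961 in WT and 0.509 and 0.488 in KO), -0.298 (GSH2 +971) and 0.32 (ITR2 +1753), and at these 3 sites the WT libraries differed from each other by more than the KO libraries did. A site that did not pass is not shown to be equal.

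**Figure D2:**
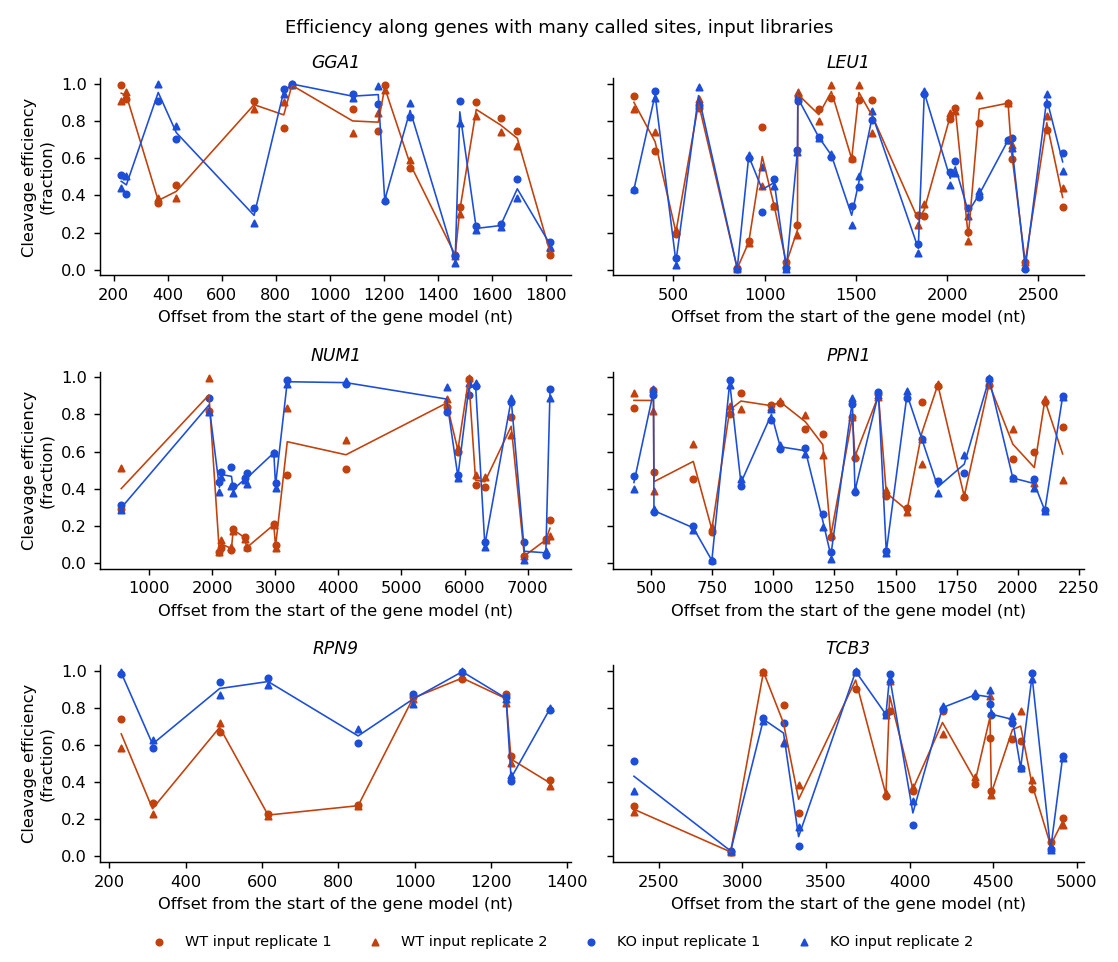
Cleavage efficiency (fraction) of each tested site against its offset (nt from the start of the gene model) in 6 genes with many called sites, with a point for each input library and lines through the group means (n = 2 each). RPN9 and NUM1 have stretches where both WT libraries lie below both KO libraries, GGA1 and PPN1 sites where they lie above, and in all 6 other sites of the same gene coincide.

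Regulators of meiotic entry decide whether a starved diploid starts meiosis. The list under that name also held genes that act later, such as NDT80 and SUM1. It had 246 tested sites in 21 genes, of which 32 fell (13.0%), 51 rose (20.7%) and 163 did not pass. Its median change was 0.0167, against -0.000212 over all sites. RIM4, an RNA-binding translational repressor of meiosis, had 0.155 and 0.13 in WT and 0.878 and 0.936 in KO at +673 (chromosome 8, position 57515), with a WT minus KO difference of -0.764 (SE 0.0315, adjusted p = 0.0111). At +3007 of SUM1, whose product represses mid-meiotic genes, the change was -0.545. RPD3, the histone deacetylase gene, rose by 0.641 at +1329, a call that ended without WT input replicate 1 (adjusted p = 0.0508). IME1, the activator of meiotic entry, had 13 tested sites, all that were listed, with 2 losses, 3 gains and 8 uncalled sites. Its gains lay in the first part of the model, at +141 (0.791 and 0.849 in WT and 0.473 and 0.461 in KO), +218 and +371. Its losses lay at the 3′ side, at +952 and at the last listed site, +1396 (0.4 and 0.389 in WT and 0.656 and 0.608 in KO). Some fits left out an input library and took the spread from all others. There the gain at +218 ran from 0.322 to 0.394 and its call ended in each fit. The call at +141 ended in most of them, and that at +371 was kept. The losses at +952 and +1396 ended without WT input replicate 1 (adjusted p = 0.0668 and 0.0518) or 2 (0.0609 and 0.0562). IME2, the meiotic kinase gene, had 20 tested sites, with 1 loss (+463), 5 gains and 14 uncalled sites. Its largest gain was 0.367 at +2151, which ended without WT input replicate 1 (adjusted p = 0.0646); +463 ended without WT input replicate 2 (0.0534), and +2011 without either WT input library (0.0791 and 0.113). Of the 14 calls in IME1, IME2 and LYS2, 2 were kept in each of the 4 fits that left out an input library and took the spread from all others. RME1, a repressor of IME1, had no tested site.

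The methyltransferase complex and its reader gave 74 tested sites in 6 genes, of which 6 fell, 13 rose and 55 did not pass (25.7% called). VIR1, a subunit of the complex, fell by 0.44 at +2200, and PHO92, the YTH-domain reader of m6A, by 0.428 at +228. SLZ1, another subunit, rose by 0.685 at +835 (chromosome 14, position 288556, minus strand), with 0.872 and 0.869 in WT and 0.178 and 0.194 in KO.

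Changes of 0.5 or more in genes of recombination, synapsis, cohesion and sporulation went both ways. In the order of the lists below there were 6, 7, 6 and 2 losses and 9, 5, 7 and 4 gains of that size. Over all 42028 tested sites 1.35% had such a loss and 1.63% such a gain, and 25.0% were called. Genes of double-strand breaks and strand exchange had 47 lower and 42 higher of 317 sites in 34 genes (28.1% called, median -0.0107). Beside the loss in RDH54, MEI4, needed for meiotic breaks, rose by 0.593 at +1450. Crossover, axis and synapsis genes had 48 lower and 83 higher of 439 sites in 28 genes (29.8%, median 0.0171). PCH2, an AAA ATPase of the pachytene checkpoint, had 0.177 and 0.152 in WT and 0.935 and 0.932 in KO at +1670 (chromosome 2, position 589328). REC8, the meiotic cohesin subunit, fell by 0.66 at +1610, and ZIP1, which builds the synaptonemal complex, rose by 0.716 at +1573. The cohesin, condensin and spindle checkpoint list had 49 lower and 46 higher of 367 sites in 30 genes (25.9%, median -0.00672). ESP1, the separase gene, had 0.102 and 0.134 in WT and 0.865 and 0.991 in KO at +5083 (chromosome 7, position 687362, minus strand), and SLI15 of the chromosomal passenger complex rose by 0.676 at +385, a call that ended without WT input replicate 1 (adjusted p = 0.0529) and on the logit scale (0.0783). Sporulation and middle meiotic genes had 27 lower and 38 higher of 259 sites in 32 genes (25.1%, median -0.0135). SPO24, a small gene of sporulation, had 0.134 and 0.111 in WT and 0.987 and 0.995 in KO at +394 (chromosome 16, position 659341), DIT1, which makes the dityrosine of the spore wall, had 0.0627 and 0.0531 in WT and 0.771 and 0.74 in KO at +1734, and CLB5, an S-phase cyclin gene, rose by 0.551 at +1204.

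Transcription, decay and translation genes followed. General transcription factors and Pol II had 43 lower and 36 higher of 328 sites in 35 genes (24.1%). SSL2, the helicase of TFIIH, had 0.0944 and 0.0588 in WT and 0.953 and 0.94 in KO at its last listed site, +2841 (chromosome 9, position 88375, minus strand). TFA1, the large subunit of TFIIE, had 0.117 and 0.0815 in WT and 0.959 and 0.977 in KO at +1580. TFG1 of TFIIF rose by 0.59 at +2347, which ended without WT input replicate 1 (adjusted p = 0.0875) or 2 (0.0975). mRNA decay genes had 37 lower and 63 higher of 417 sites in 42 genes (24%). SKI3, of the complex that feeds RNA to the exosome, had 0.184 and 0.155 in WT and 0.974 and 0.956 in KO at +3711 (chromosome 16, position 924191), and NGR1, an RNA-binding protein gene, 0.211 and 0.244 in WT and 0.974 and 0.949 in KO at its last listed site, +2344. NAM7, the helicase of nonsense-mediated decay, rose by 0.756 at +1922, although its WT libraries stood apart (0.992 and 0.762 in WT and 0.131 and 0.111 in KO). Translation factors had 60 lower and 70 higher of 545 sites in 40 genes (23.9%). GCD11, the gamma subunit of eIF2, had 0.0627 and 0.147 in WT and 0.792 and 0.769 in KO at +1759, and FUN12, eIF5B, rose by 0.687 at +1936 with both WT libraries at their ceiling, a call that ended without WT input replicate 1 (adjusted p = 0.083) or 2 (0.0849). Ribosome biogenesis had the lowest share of calls among the lists, 17.6% of 295 sites in 49 genes, with 22 lower and 30 higher and 18 genes without a call. NOP56, a snoRNP protein gene, changed by -0.568 at +1604 and by 0.72 at +549, and RIO2, a kinase of small-subunit maturation, fell by 0.598 at +866.

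Metabolic genes were well covered: all 38 genes of acetate use and the TCA cycle were tested, at 618 of 687 listed sites. Of these, 89 were lower and 128 higher (35.1%, the highest share among the lists), and 1 gene had no call. YAT2, a carnitine acetyltransferase gene, had 0.316 and 0.28 in WT and 0.915 and 0.953 in KO at +2435, and MDH2, cytosolic malate dehydrogenase, 0.31 and 0.239 in WT and 0.875 and 0.89 in KO at its last listed site, +1506. Glycolysis, gluconeogenesis and storage carbohydrate had 56 lower and 92 higher of 546 sites in 36 genes (27.1%). GPH1, glycogen phosphorylase, had 0.306 and 0.286 in WT and 0.849 and 0.855 in KO at +1497 (chromosome 16, position 869959), and FBA1, aldolase, rose by 0.754 at +899. ATH1, acid trehalase, fell by 0.509 at +2345, a call that ended without WT input replicate 2 (adjusted p = 0.0821) and on the logit scale (0.0509). Nutrient permeases and nutrient sensing had 46 lower and 75 higher of 470 sites in 45 genes (25.7%). CDC25, the exchange factor that activates Ras, had 0.193 and 0.19 in WT and 0.955 and 0.851 in KO at +4186, GCN2 fell by 0.693 at +3069, and GAP1 rose by 0.747 at +1974.

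Chaperone and proteasome genes followed. Chaperones had 89 lower and 116 higher of 642 sites in 39 genes (31.9%), all but 1 of which had a call. CCT7, a subunit of the cytosolic chaperonin, had 0.317 and 0.245 in WT and 0.91 and 0.969 in KO at +817 (chromosome 10, position 218986), and the Hsp90 cofactor gene AHA1 0.0597 and 0.0671 in WT and 0.857 and 0.923 in KO at +1177. SSZ1, of the ribosome-associated complex, rose by 0.787 at +385, where both WT libraries stood at their ceiling. Ubiquitin and proteasome genes had 116 lower and 131 higher of 733 sites in 56 genes (33.7%), with 15 losses and 16 gains of 0.5 or more. PRE6, a 20S subunit gene, had 0.0942 and 0.0884 in WT and 0.972 and 0.805 in KO at +890 (chromosome 15, position 256903). Autophagy and vacuole genes had 53 lower and 67 higher of 434 sites in 37 genes (27.6%). VPS13, the lipid transfer protein gene, had 0.284 and 0.224 in WT and 0.937 and 0.941 in KO at +9257, ATG8, the ubiquitin-like protein of autophagosomes, fell by 0.561 at its last listed site, +664, and PEP4, the vacuolar protease gene, rose by 0.637 at +284. Shares of calls varied between lists from 17.6% to 35.1% around 25.0% over all sites, and no list was tested against the rest. The share of listed sites that could be tested also varied. It was lowest in ribosome biogenesis (31.1%) and highest in acetate use and the TCA cycle (90%), the lists with the lowest and highest share of calls. Translation factors (78.3% tested, 23.9% called) and meiotic entry regulators (59.1% and 33.7%) departed from that order, and the relation was not tested.

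Losses were more frequent at the 3′ ends of the gene models. The last listed site of a gene was lower in WT at 527 of 3033 tested (17.4%) and higher at 263 (8.67%), whereas all other sites were lower at 4100 of 38995 (10.5%) and higher at 5618 (14.4%). The median change was -0.0584 at last listed sites and 0.00228 elsewhere. When models were divided in 5 equal stretches ending at the last listed site, 8.78% to 10.1% of sites were lower in the first 4 stretches and 13.5% in the last stretch. Gains showed no such step, at 14.0% to 14.9% in the first 4 stretches and 13.1% in the last. Of the 568 losses of 0.5 or more, 316 lay in the last stretch, as did 200 of the 686 gains of that size; the last stretch held 14245 of the 42028 tested sites. Without the last listed sites, the last stretch had 12.4% lower and 14.3% higher. KO efficiency was also higher at last listed sites (median 0.777, against 0.621 elsewhere), and its part in the difference was not tested.

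**Figure D3:**
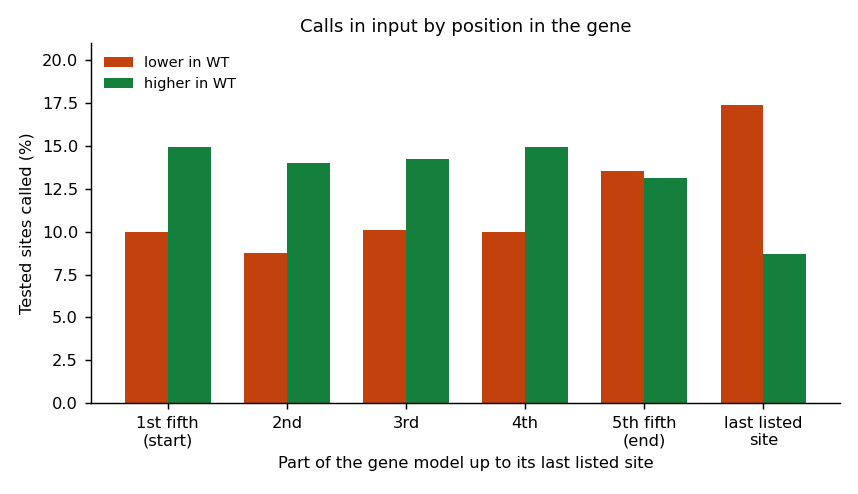
Share (%) of tested sites called lower or higher in WT input in each of 5 equal stretches of the gene model up to its last listed site, and at last listed sites alone (3033 sites, which also count in the last stretch). The share called lower stands at 8.78% to 10.1% in the first 4 stretches, 13.5% in the last and 17.4% at last listed sites, where the share called higher is 8.67%.

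A loss and a gain could sit side by side. IZH2, a membrane receptor gene of zinc homeostasis, had 0.992 and 0.966 in WT and 0.269 and 0.39 in KO at +213 and the opposite at +301, 88 nt downstream, with 0.154 and 0.108 in WT and 0.935 and 0.972 in KO (chromosome 15, positions 325113 and 325025, minus strand). APE2, an aminopeptidase gene, changed by 0.609 at +3222 and by -0.716 at +3310. BUB3, a spindle checkpoint gene, changed by -0.88 at +1209 and by 0.538 at +1282. MLO50 changed by -0.905 at +1123 and by 0.402 at +1201. COS5 did the same at its last adjacent sites (-0.839 and 0.45), where near-identical family members make values uncertain. These 5 pairs were the largest by rule and 70 to 88 nt apart. Over all 348 deep losses with a tested downstream neighbour, that neighbour's median change was 0.000312, with 12.4% lower and 15.2% higher, beside 11.9% and 14.3% of all downstream neighbours. Of the 28 such neighbours at 1 to 20 nt, 9 were lower (32.1%), beside 7.25% of all downstream neighbours at that distance, a difference that was not tested.

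The IP libraries, which the choice of these sites did not use, could be set beside input at 17376 sites. Input and IP of a replicate may come from the same culture. At the 277 deep losses with all IP values, both WT IP libraries lay below both KO IP libraries at 273 (98.6%, against 32.8% of all such sites), and the median change was -0.763 in IP and -0.617 in input. Median efficiency there was 0.274 in WT input and 0.0947 in WT IP, with 0.916 and 0.895 in KO. At all 2249 lower calls with IP values the IP change was smaller, with a median of -0.227 against -0.319, and both WT IP libraries lay below at 77.0%. At the 251 gains of 0.5 or more, both WT IP libraries lay above both KO IP libraries at 238 (94.8%, against 39.7% of all such sites), and the median change was 0.471 in IP and 0.549 in input. Whether deep losses and gains differed in how they moved after IP was not tested.

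**Figure D4:**
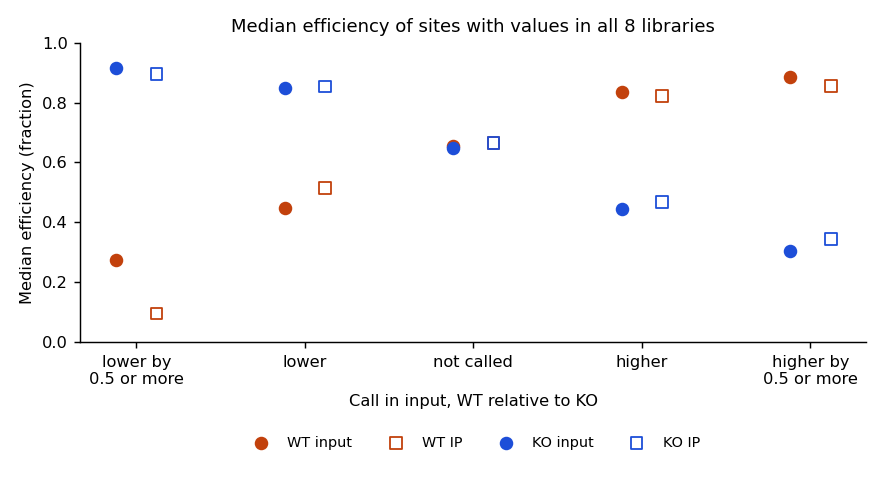
Median cleavage efficiency (fraction) over sites with values in all 8 libraries, grouped by their call in input, for input (filled circles) and IP (open squares) of each genotype (2 libraries per group). At losses of 0.5 or more WT stands at 0.274 in input and 0.0947 in IP while KO stays near 0.9, and at gains of 0.5 or more WT lies above KO in both.

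Some sites were measured in only 1 genotype, and these never reach a comparison of efficiencies. Both WT and neither KO input library measured 1293 sites (1.69% of those listed) in 815 genes, and both KO and neither WT input library measured 5448 sites (7.14%) in 2114 genes. After IME4, the genes with most sites in WT alone were SMK1, the sporulation MAP kinase gene, and SPS22, a gene of the spore wall, with 8 each, SPS4 with 7, and CLB4, DTR1, FMO1 and HXT14 with 6 each. SMK1 had 10 listed sites, of which WT measured 8 and 10 and KO none. SPS4, a sporulation-specific gene, had 14, of which WT measured 9 and 14 and KO 2 and 0. DTR1, the dityrosine transporter gene, had 18, of which WT measured 13 and 18 and KO 8 and 7. CLB4 is a B-type cyclin gene, FMO1 a flavin-containing monooxygenase gene and HXT14 a member of the hexose transporter family. Over the sporulation and middle meiotic list, 75 of 521 listed sites, in 24 of 45 genes, were measured in WT alone (14.4%) and 9 in KO alone (1.73%).

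RME1, the repressor of IME1, was measured at 15 of 15 listed sites in both KO input libraries and at 0 and 3 in WT input. After IP it was measured at 8 and 8 sites in WT and at 4 and 6 in KO, the opposite order. The 8 genes with most sites in KO alone were PDR5, a multidrug efflux pump, with 21, FLC1 with 19, ACC1, acetyl-CoA carboxylase, with 17, IST2, an ER to plasma membrane tether, with 16, TCO89, a TORC1 subunit, with 15, RDH54 with 14, and MAE1, malic enzyme, and SKG6 with 13 each. Of MAE1 both WT input libraries measured only the 3′ part, from +1831 and +1762 on, where KO began at +129. Of PDR5 WT input replicate 1 began at +3712, but replicate 2 at +1156, where KO began at +145. SKG6 had no value in WT input and 14 and 13 in KO input. After IP it had 2 and 4 in WT and 3 and 4 in KO. Ribosome biogenesis genes had 159 of 950 listed sites in KO alone (16.7%), in 45 of 56 genes, and 3 in WT alone; meiotic entry regulators had 52 of 416 in KO alone (12.5%), of which 12 were sites of RME1. Nutrient genes, with 70 of 867 (8.07%), were near the 7.14% of all listed sites. WT input replicate 1 measured fewer sites than the other libraries, and its part in the surplus of KO-only sites was not tested. A missing value is no measure of how much transcript there was, fewer cells with a transcript and less of it per cell cannot be told apart in bulk RNA, and no list was tested against the rest.

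**Figure D5:**
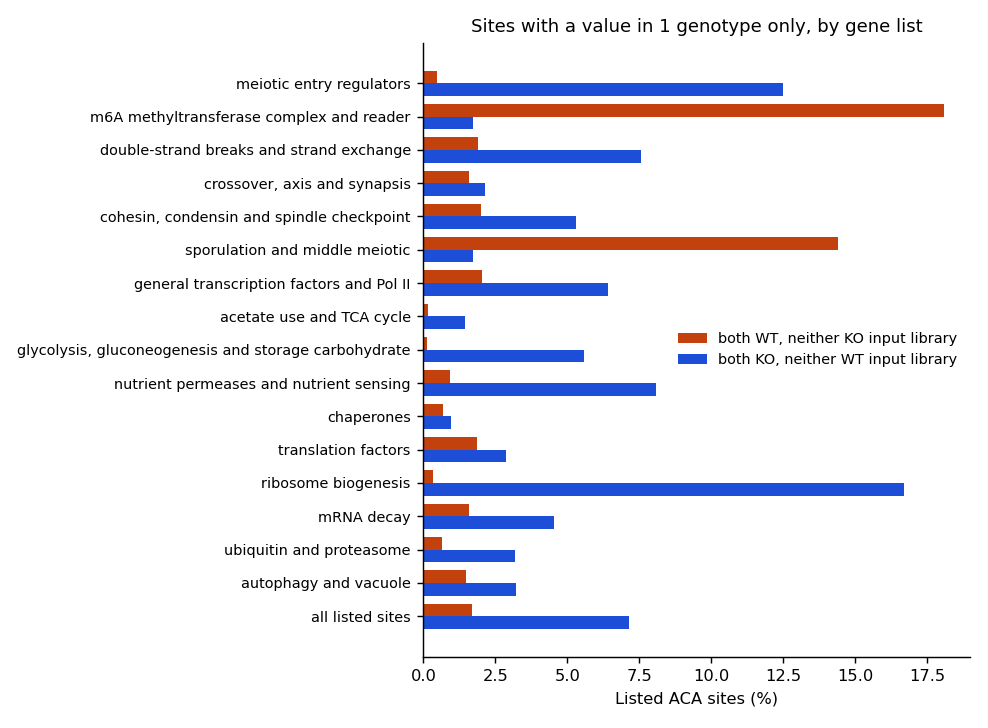
Share (%) of the listed ACA sites of each gene list with a value in both input libraries of 1 genotype and in neither of the other. Sporulation and middle meiotic genes (14.4%) and the m6A list, through the deleted IME4, stand out in WT alone, and ribosome biogenesis (16.7%) and meiotic entry regulators (12.5%) in KO alone, against 1.69% and 7.14% of all listed sites.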

How the data were processed

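MazF-digested polyadenylated RNA from 4 input libraries, 2 WT and 2 KO, was compared, with 4 IP libraries used only beside it. The authors deposited 1 table of normalized cleavage efficiencies as a fraction per ACA site, gene model and library. The submitters' processing notes name STAR 2.5.3a and bedtools 2.26.0; the sources used here do not give the build, the least depth asked of a site, or how the fraction was computed and normalized. In all the table had 77601 lines for 6104 gene models, and 1241 positions stood on several lines, of which 107 differed in a value. The line with most values was kept, then the first, which left 76330 sites. Gene names came from RefSeq through locus tag or symbol for 5699 models, and 405 were not matched. Depth per site is unknown, and having 2 libraries per group limits the precision. The p-values rest on the spread between these biological replicates, pooled over WT and KO and moderated by a prior from all sites.

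WT minus KO was fitted on the fraction with limma 3.58.1 in R 4.3.3 at all sites with a value in the 4 input libraries. There were 2 residual degrees of freedom and 1.33 prior ones, and p-values were two-sided, Benjamini-Hochberg adjusted over 42028 sites with a threshold of 0.05. The procedure was also run on simulated data with the same noise in WT and KO and no upper limit to the values. The real libraries differed in spread between genotypes and had a ceiling, so the simulation does not cover those features. Summaries used Python 3.11.15 and pandas 2.3.3. The members and lists were chosen with earlier results of these data known. Sites were named by rule. The rule took the 12 largest losses and 8 largest gains, 1 per gene, among called sites lacking an IP value whose groups did not overlap. It took the genes with most calls of 0.3 or more (6 for losses, 4 for gains). It also took the 2 largest losses and 1 gain of each of 16 lists, the targeted and marker genes, 8 genes measured mostly in WT alone and 8 in KO alone, 4 genes without a call and 5 adjacent opposite pairs. 1 site that the rule names is not reported here. Alternatives were the logit scale, other normalizations, filters and priors, all 8 libraries, a replicate block and leaving out each library. The labels do not say whether the replicate numbers pair the libraries. Replicate differences of WT and KO correlated at -0.000184 across sites, which cannot settle whether cultures or preparations were paired.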

Additional observations from a re-analysis of the deposited data

How the results depend on the processing

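Under the logit scale, quantile normalization, median centring, a mean efficiency of at least 0.1, a robust and trended prior, all 8 libraries with missing IP values, and no value at 0.99 or above, the count of calls stayed between 8885 and 10941, against 10508. Similar counts did not mean the same sites. Of the 10508 calls of the full fit, 7583 were also called on the logit scale and 9180 with all 8 libraries and missing IP values. The robust and trended prior kept 9381, quantile normalization 10015 and median centring 10330. With sites measured in 3 of 4 libraries, losses of 0.5 or more numbered 878. At sites measured in all 8 libraries, fewer sites were tested and 5591 were called, 2705 lower and 2886 higher; 1347 losses and 1370 gains reached 0.3, and 280 and 256 reached 0.5. With the replicate number as a replicate block, 0 sites were called of any direction or size by limma, with fewer residual degrees of freedom. In that limma fit 15022 sites had an unadjusted p below 0.05, and the lowest adjusted p was 0.0507. Whether the numbers pair the libraries is not stated by the labels. Leaving out each library, the count ran from 0 to 10056, lower calls from 0 to 5061, higher from 0 to 4995, losses of 0.3 from 0 to 3283, gains of 0.3 from 0 to 3186, losses of 0.5 from 0 to 704 and gains of 0.5 from 0 to 855, with 0 in each case without a KO library. In fits chosen after seeing the data, with the spread from all remaining libraries, 3027 sites were called without KO input replicate 1 (1531 lower, 1496 higher; 1312 losses and 1214 gains of 0.3; 411 gains of 0.5). Without KO input replicate 2 there were 2746 (1389 lower, 1357 higher; 1199 losses and 1112 gains of 0.3; 386 gains of 0.5). Without WT input replicate 1 these fits gave up to 3291 losses of 0.3, 736 losses of 0.5 and 876 gains of 0.5. None of the 150 called sites named by rule reversed where it had a value, which was 81 of them at sites measured in all 8 libraries, 126 without values at 0.99 or above and all 150 elsewhere. With only calls of 0.3 or more, 11.8% of last listed sites were lower and 4.19% higher, against 6% and 7.5% elsewhere. Depth per site is unknown and values at a library's ceiling carry no spread.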

Other observations

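Ribosomal RNA genes, whose copies share reads and which the polyadenylated RNA still held, gave 92 tested sites, of which 21 were lower and 2 higher. Of the 41366 tested sites in protein-coding genes, 4546 were lower and 5808 higher.

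The direction of calls followed the efficiency in KO, a relation in which the KO value enters both quantities. Of 9842 sites with a KO mean of 0 to 0.2, 0.386% were lower and 9.31% higher. Of 15512 sites with a KO mean of 0.8 to 1, 16.7% were lower and 1.16% higher. Gains were most frequent between 0.4 and 0.6, at 37.6% of 5136 sites.

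Distance to the nearest listed site went with the share of gains. Sites with a neighbour within 1 to 20 nt were higher at 16.7% and lower at 11.7%, and the 503 sites with none within 200 nt were higher at 7.95% and lower at 15.1%. The 27 tested downstream neighbours at 21 to 50 nt from a gain of 0.5 or more were higher at 44.4%, against 19.9% of all downstream neighbours at that distance. None of these differences was tested.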
